A study of Mus musculus with 51 samples.

Results

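Sorted primary tumor cells of the Etv6-NTRK3 mouse model were set against wild-type mammary gland, 13 of the 51 arrays of the series. They were chosen by their sample labels alone. The 8 tumor arrays came from 6 mice, 3 of them from separate tumors of 1 mouse, and the 5 gland arrays from 5 mice. In the tumor mice Cre recombinase, driven by the promoter of the milk gene Wap, switched on an Etv6-NTRK3 fusion allele, and a Rosa-Stop-lacZ reporter marked recombined cells, which were sorted as lacZ-positive. The glands came from wild-type mice and were left unsorted, so genotype, tumor state, sorting and cell makeup all differ between the 2 groups and cannot be told apart. The labels used here state no strain, age or reproductive stage. They call the glands unfractionated and do not say if the tissue was dissociated before RNA extraction. In these glands epithelial and early-response genes were high and the adipocyte hormone genes Adipoq and Lep low, with values given below, so the cell makeup of the glands is uncertain wherever stromal, fat or early-response genes are compared. Sorted hyperplastic epithelium (4 arrays, 4 mice) and unsorted primary tumor (23 arrays, 14 mice) served for comparison.

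ETV6-NTRK3 fuses a transcription factor's dimerization domain to the kinase domain of a neurotrophin receptor and is the hallmark lesion of human secretory breast carcinoma, a tumor that makes milk-like secretion. The mammary duct has an inner layer of luminal cells, some of which sense estrogen and progesterone and some of which form milk-producing alveoli, and an outer layer of contractile myoepithelial cells. Around it lie adipocytes, fibroblasts, vessels and immune cells. Activator protein 1 (AP-1) subunits such as Fos and Jun are early-response genes, transcribed within minutes of a stimulus, including the handling and enzymatic dissociation of tissue.

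Levels are log2 probe set intensities, floored at 5, and differences are log2 tumor minus gland from a limma fit, called at a Benjamini-Hochberg adjusted p under 0.05. Array medians lay between 46.1 and 57.8 intensity units, so the arrays were alike in overall brightness, and with 8 and 5 arrays the precision is limited by their number. Of 15123 genes tested, 1797 (11.9%) were higher and 1726 (11.4%) lower in sorted tumor, and the median difference over all genes was 0.049. For 506 genes (3.35%) every tumor array lay above every gland array, and for 515 (3.41%) every tumor array lay below. These shares are the background for each count below. The log2 ratio of 3 prime to 5 prime Actb control probe sets, a sign of RNA degradation, was 0.131 to 0.57 in tumors and 0.252 to 2.18 in glands (exact two-sided permutation test, p = 0.0101, adjusted over 3 tests 0.0303), highest in gland 4. The permutation tests here and below took arrays as independent, though 3 tumor arrays came from 1 mouse. With the Actb ratio as a covariate 689 genes were higher and 1016 lower. With only the 13 arrays in the fit, 739 were higher and 668 lower. The spread and the correlation of arrays of 1 mouse (0.713, against 0.358 as reported) then came from these groups alone. Relative to epithelial genes (Krt8, Krt18, Epcam, Cdh1, Cldn7, Spint2) the split turned from 1797 against 1726 to 290 against 717, as the median of all genes moved to -0.137. The count of higher genes also fell to 1073 without gland 4 and to 1018 without gland 5. No gene called both as reported and under one of these 5 settings changed direction. When all probe sets of a gene were averaged, 2 genes called in both fits had opposite directions.

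**Figure D1:**
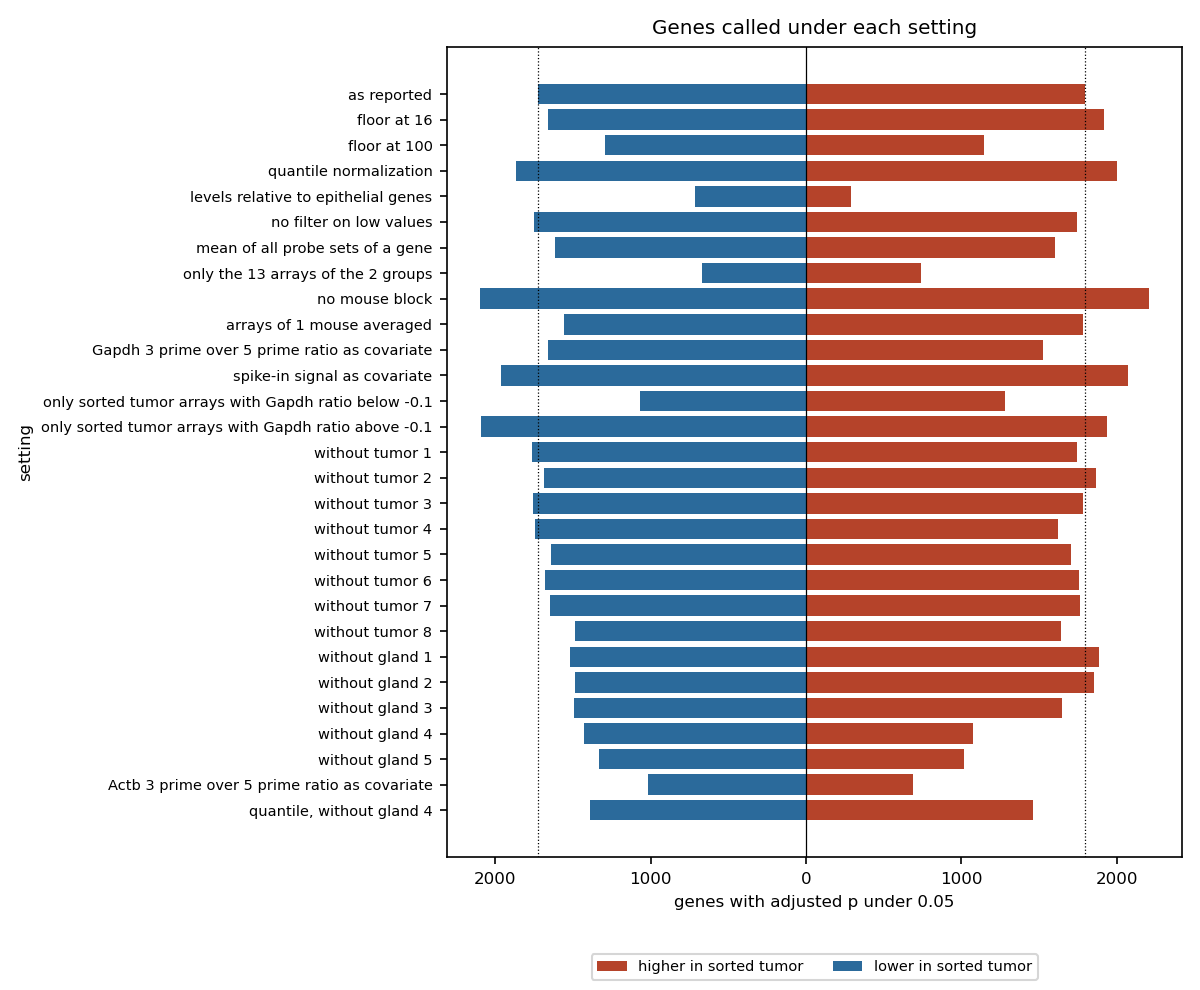
Number of genes higher (right) and lower (left) in sorted tumor than in gland at an adjusted p under 0.05, under each setting; dotted lines mark the reported counts of 1797 and 1726. The shortest bars are those relative to epithelial genes (290 and 717), with only 13 arrays (739 and 668) and with the Actb ratio as covariate (689 and 1016).

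Milk protein genes and glycolysis genes rose in sorted tumor, and windows near their start sites are shown to let the sequences be read beside the values. The windows are from RefSeq promoters of GRCm38.p6, each on its gene's strand and 5′ to 3′. Milk genes are known targets of the prolactin-activated factor STAT5, whose core motif TTCNNNGAA reads the same on both strands. Of 12 milk genes listed, 10 had a promoter window and 4 of these held the motif, against 8.3% of all 32851 windows. In Csn1s2a the match begins at transcribed base 21, and its sequence is not printed. The other 3, with the motif in capitals, are Csn1s1 (chr5:87666068-87666157, + strand, motif at base -100 from the start), Csn2 (chr5:87699469-87699558, - strand, motif at -93) and Glycam1 (chr15:103565177-103565266, - strand, motif at -145).
Csn1s1: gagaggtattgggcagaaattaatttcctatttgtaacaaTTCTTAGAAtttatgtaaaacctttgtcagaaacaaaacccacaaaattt
Csn2: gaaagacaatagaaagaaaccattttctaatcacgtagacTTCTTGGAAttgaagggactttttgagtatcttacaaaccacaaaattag
Glycam1: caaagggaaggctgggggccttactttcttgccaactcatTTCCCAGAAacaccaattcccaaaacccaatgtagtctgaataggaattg
All 4 genes rose, with the values that follow. Lalba, Wap, Ltf, Wfdc18, Lpo and Cel held no match in their windows. Of these, Lalba, Ltf and Wfdc18 also rose and Lpo fell, so a rise was not particular to genes with a match. The call of Wfdc18 was lost in 10 of 28 alternative settings and that of Lpo in 20.

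Milk protein genes rose, with the highest median of the gene lists described here. Of 12 tested, 8 were higher in sorted tumor, 1 was lower and 3 did not pass, with a median of 1.89 against 0.049 over all genes. The count lower was 0 in most settings, among them without tumor 3, 4, 5, 7 or 8 and without gland 3, 4 or 5. Csn1s2a, a calcium-sensitive casein, was 10.47 to 13.49 (median 12.96) in the 8 tumors and 10.78, 5.29, 5.28, 10.55 and 5.00 in glands 1 to 5. Glands 1 and 4 thus carried casein transcript at the level of the lowest tumor, and the other glands lay near the floor. The fitted difference was 5.13 ± 0.63 (SE, adjusted p = 3.29e-08), the largest rise among genes ranked for naming. Csn2, beta-casein, was 12.43 to 13.48 in tumors and 12.36, 8.29, 10.22, 11.92 and 8.15 in glands, a difference of 2.91 ± 0.42 (adjusted p = 1.06e-06). The groups touched but did not overlap for Csn2, and again glands 1 and 4 were the highest. Csn1s1 rose by 2.99 (adjusted p = 8.10e-06) with the same glands high, at 11.81 and 11.25 against 8.28 to 8.48 in the other glands. Lalba, alpha-lactalbumin, the regulatory subunit of lactose synthase, followed another order. It was 8.69 to 12.94 in tumors and 6.94, 7.50, 6.14, 6.27 and 7.33 in glands, with no overlap (difference 3.50 ± 0.75, adjusted p = 6.65e-04). Csn3, kappa-casein, was high everywhere, at 11.34 to 12.62 in glands and 12.36 to 13.60 in tumors (difference 1.26, adjusted p = 8.60e-06). Glycam1, a mucin-like milk glycoprotein, was 10.26 in gland 4 and 5.37 to 5.98 in the other glands, against 7.33 to 13.55 in tumors. Its difference of 3.85 ± 1.44 (adjusted p = 0.046) lost its call in 14 of 28 alternative settings. Among these were the fits without tumor 1, 2, 3, 4 or 7 and without gland 1, 2, 3 or 5, with the smallest difference without tumor 3 (3.28, adjusted p = 0.1). Ltf, lactoferrin, rose by 2.13 (adjusted p = 0.0173), but not without gland 1 (1.90, adjusted p = 0.0509) or gland 4 (1.94, adjusted p = 0.0557).

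Wap, whey acidic protein, whose promoter drives Cre in this model, did not pass. It was 6.14 to 6.36 in glands and 5.95 to 11.95 (median 7.16) in tumors, with only tumors 3 and 7 above 9 (difference 1.38, 95% confidence interval -0.06 to 2.81, adjusted p = 0.163). In the 4 hyperplasia arrays it was 9.11 to 11.56, and tumors were lower than hyperplasia by 3.08 (adjusted p = 0.0127). Among lipid genes of the secretory cell, 3 of 12 fatty acid synthesis genes rose and none fell (8 rose and none fell at an unadjusted p under 0.05). The count was 7 without tumor 2, 6 without tumor 5 and 5 without gland 1, but 2 without gland 5 or with only the 13 arrays. Scd2, a stearoyl-CoA desaturase, was 9.21 to 11.70 in tumors and 8.41 to 8.98 in glands (difference 2.03 ± 0.42, adjusted p = 3.89e-04). Srebf1, the lipogenic transcription factor, rose by 1.36 (adjusted p = 0.00341). Of 9 milk fat globule genes 2 fell in the limma fit (1 without gland 4) and none rose (2 at an unadjusted p under 0.05). Among those that fell was Cd36, a fatty acid transporter also made by adipocytes, endothelium and macrophages, which fell by 3.27 (adjusted p = 0.00582; 0.103 with only the 13 arrays) from 9.69 to 11.87 in glands.

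The adhesion genes and keratins of the luminal layer mostly did not pass. Of 19 tested, 1 rose and none fell in the limma fit or at an unadjusted p under 0.05 (median 0.419). Epcam was 9.82 to 12.44 (median 11.83) in tumors and 10.80 to 11.93 in glands, with a difference of 0.07 (95% confidence interval -0.54 to 0.67). Krt8 (-0.33, interval -0.91 to 0.26) and Krt18 (-0.17, interval -0.81 to 0.46), the simple-epithelium keratin pair, did not pass either. The mean of the 6 epithelial genes was 10.3 to 11.9 in tumors and 10.2 to 11.5 in glands (exact two-sided permutation test, p = 0.479), so epithelial transcripts were abundant in these glands. Muc1, an apical membrane mucin, was the one that rose, from 6.29 to 8.18 in glands to 7.21 to 11.14 in tumors (difference 2.01 ± 0.49, adjusted p = 0.00224; adjusted p = 0.0523 with only the 13 arrays). Pigr, which carries immunoglobulin A across secretory epithelium, rose by 3.56 (adjusted p = 0.00316), with 5.88 to 11.28 (median 9.35) in tumors and 5.00 to 5.91 in glands. The lowest tumor, at 5.88, overlapped the glands.

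Hormone-sensing genes fell. Of 7 tested, 4 were lower and none higher, with a median of -1.11. Pgr, the progesterone receptor, was 5.03 to 6.97 (median 5.82) in tumors and 8.32, 9.20, 8.34, 7.94 and 8.88 in glands, with no overlap (difference -2.47 ± 0.33, adjusted p = 2.71e-07). Cited1, a co-activator of the estrogen receptor, was at the floor on all 8 tumor arrays and 8.66, 8.02, 8.56, 5.91 and 8.14 in glands, so it was at least 7.26-fold lower. The progesterone targets Wnt4 (-1.55, adjusted p = 0.0027) and Tnfsf11, or RANKL, also fell. Tnfsf11 was at the floor on every tumor array and on glands 2 and 5, and its call was lost with only the 13 arrays. Esr1, the estrogen receptor, did not pass (-0.66, interval -1.36 to 0.04), at 5.00 to 8.41 in tumors and 6.38 to 8.33 in glands. In unsorted tumors minus gland, which shares the glands, Pgr differed by -2.44 and Cited1 by -2.86. Sorted and unsorted tumors differed by -0.03 for Pgr (adjusted p = 0.95), which did not pass.

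Basal markers parted from contractile ones. Of 11 myoepithelial contractile genes 8 fell and none rose (median -2.0), whereas of 13 basal keratin and p63 genes 1 rose and none fell (median 0.226; 4 rose and none fell at an unadjusted p under 0.05). The count of contractile genes that fell was 5 with only the 13 arrays, 6 with only tumors 5 to 8 and 10 after quantile normalization. Myh11, smooth muscle myosin heavy chain, was 10.31, 10.16, 10.23, 8.87 and 9.74 in glands and 5.00 to 8.06 (median 5.13) in tumors (difference -4.24 ± 0.51, adjusted p = 1.52e-08). Tumor 7 gave the highest value and the groups did not overlap. Cnn1, calponin, fell by 2.96, Tagln, transgelin, by 2.68 and Myl9, a myosin light chain, by 2.65 (adjusted p = 1.23e-05, 0.00112 and 0.00141). Acta2, smooth muscle actin, did not pass (-0.67, adjusted p = 0.0531). Smooth muscle of vessel walls also makes these contractile proteins, and their share in the glands was not tested. Krt14 was 9.17 to 12.23 in tumors and 10.65 to 11.54 in glands (difference -0.11, interval -1.35 to 1.14). Krt5 spanned 5.89 to 12.29 across tumors, with tumor 8 lowest and tumors 2 and 5 highest, against 9.58 to 10.37 in glands (difference -0.04, interval -2.05 to 1.98). Itgb4, a hemidesmosome integrin, rose by 1.78 (adjusted p = 0.0167), but not without gland 4 (1.38, adjusted p = 0.0942). The count of basal genes that rose was 3 without tumor 4 and 2 without tumor 2 or tumor 8.

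**Figure D2:**
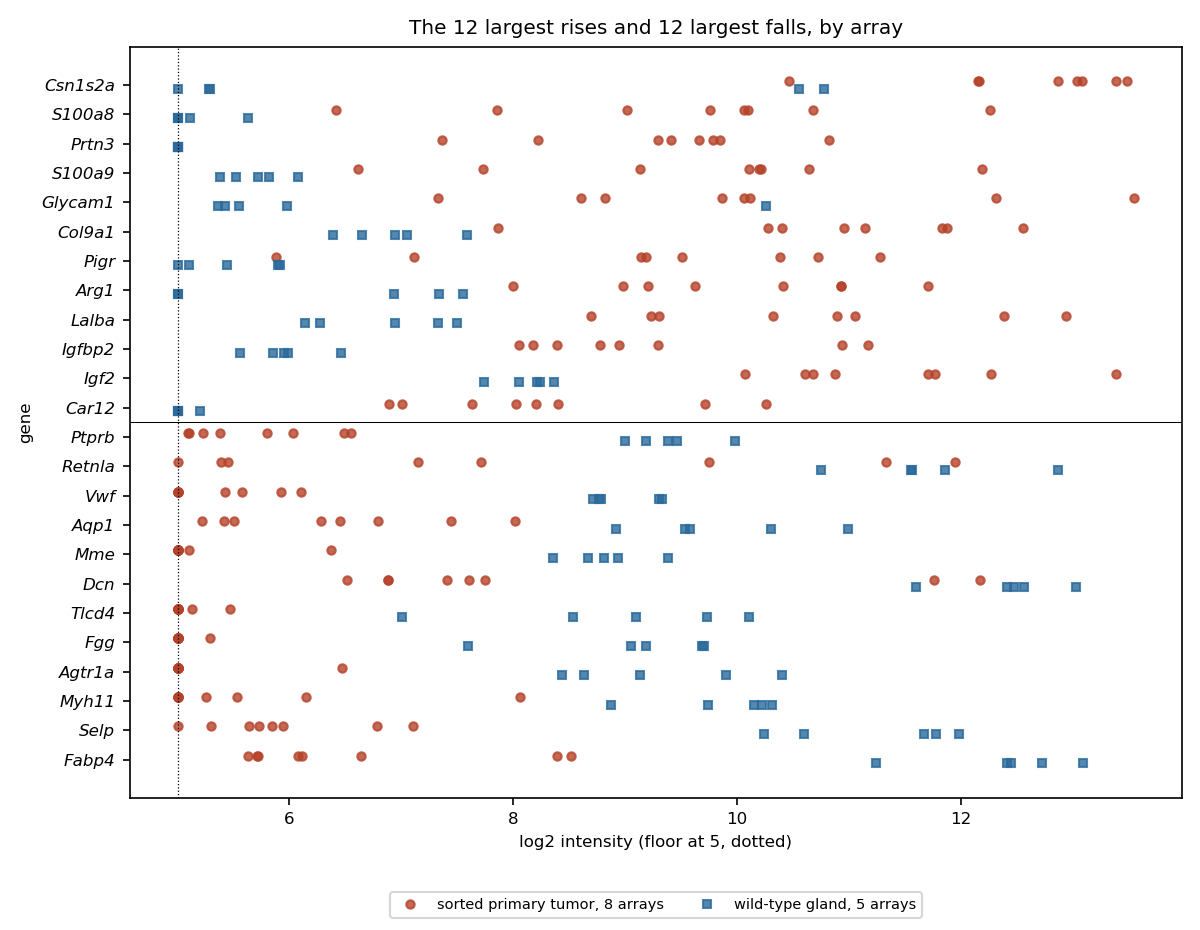
Log2 intensity on each array (horizontal axis, floor 5 dotted) of the 12 genes with the largest rises (above the line) and the 12 with the largest falls; red circles are the 8 sorted tumors and blue squares the 5 glands. Csn1s2a, Glycam1 and, narrowly, Pigr have glands inside the tumor range, and Dcn and Retnla have 2 tumors inside the gland range.

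Endothelial genes and many genes of connective tissue fell. In samples of mixed cells fewer cells of a type and less RNA per cell cannot be told apart. Of 17 endothelial genes 15 fell and none rose, with a median of -2.65, and for 14 the arrays did not overlap. The same 15 to 0 was found with only the 13 arrays, with the Actb covariate and relative to epithelial genes. Selp, P-selectin, was 10.24, 11.78, 11.68, 10.60 and 11.99 in glands and 5.00 to 7.11 (median 5.79) in tumors (difference -5.13 ± 0.48, adjusted p = 1.99e-11). Sele, E-selectin, and Pecam1, the endothelial adhesion molecule CD31, were at the floor on all 8 tumors. Sele was 6.79 to 9.15 in glands, so at least 8.82-fold lower in tumor, and Pecam1 was 5.07 to 7.24 (at least 2.20-fold). Vwf, von Willebrand factor (-3.58), Ptprb, the vascular endothelial phosphatase (-3.55), Cdh5, VE-cadherin (-3.16), and Esam (-3.26) fell with adjusted p between 1.09e-06 and 5.32e-11. Aqp1, a water channel of capillaries and red cells, fell by 3.64 (adjusted p = 3.93e-06). The mean level of the endothelial list was 5.37 to 6.67 in tumors and 7.60 to 8.94 in glands. Of 7 pericyte genes, also of vessels, 2 fell and none rose, in the limma fit and at an unadjusted p under 0.05 (median 0.211).

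Of 19 fibroblast and interstitial matrix genes 11 fell and 1 rose (median -1.85), and none rose without gland 4 or gland 5. The count that fell was 5 with only tumors 1 to 4, which had the lower Gapdh ratios and higher spike-in signal, and 16 with only tumors 5 to 8. Dcn, the proteoglycan decorin, was 12.48, 13.03, 12.42, 11.60 and 12.57 in glands and 6.51 to 12.18 (median 7.51) in tumors (difference -3.80 ± 1.01, adjusted p = 0.0052; -2.73, adjusted p = 0.0926 with only tumors 1 to 4). Tumors 2 and 4 lay inside the gland range and the other 6 at 7.75 or below. The list's mean level was 10.45 in tumor 4 and 7.21 to 8.96 in the other tumors, against 9.72 to 10.54 in glands. Lum, lumican (-3.52), Dpt, dermatopontin (-3.46), and Pdgfra, a receptor for platelet-derived growth factor (-2.55), also fell (adjusted p = 1.81e-04, 2.59e-04 and 2.57e-05). Col1a1 did not pass (-1.41, adjusted p = 0.2). Mmp3 (-2.83) and Mmp2 (-2.19), stromal matrix proteases, fell (adjusted p = 7.12e-04 and 2.98e-04), and so did Lama2, the laminin chain of muscle and nerve basement membrane (-2.48, adjusted p = 6.62e-09). Agtr1a, an angiotensin II receptor, was at the floor in 7 of 8 tumors and 8.43 to 10.40 in glands (difference -4.06 ± 0.33, adjusted p = 2.26e-13). Fgg, the fibrinogen gamma chain (-4.00), Mme, the peptidase neprilysin (-3.68), and Tlcd4 (-3.80) showed the same pattern, with tumor medians of 5.00.

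Adipocyte genes were divided. Fabp4, the fatty acid-binding protein of adipocytes and capillary endothelium, had the largest fall among genes ranked for naming (-5.54 ± 0.89, adjusted p = 9.27e-06). It was 12.42, 13.09, 12.45, 11.24 and 12.72 in glands and 5.63 to 8.51 in tumors. Car3, carbonic anhydrase 3, was at the floor in all tumors and 6.67 or higher in glands, at least 10.6-fold lower. Lpl, lipoprotein lipase, and Aoc3 fell as well (-2.35 and -2.44). The other 6 of 10 tested did not pass, and the hormone genes that define fat were low in the glands too. Adipoq, adiponectin, was 5.17, 6.86, 5.82, 5.00 and 6.03 in glands and at the floor in all tumors (difference -0.71, adjusted p = 0.384), and Lep, leptin, was 5.00 to 5.32 in glands. These samples are labelled as unfractionated gland, whose fat pad is known to make both hormones.

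Immune lists did not move together. Of 18 macrophage and dendritic genes 2 rose and none fell, with a median of 1.04 (10 rose and none fell at an unadjusted p under 0.05). Without tumor 8 the count that rose was 9. Their mean level split the tumors: 9.03, 10.09, 10.09, 10.47 and 9.29 in tumors 1 to 5 and 7.91, 8.07 and 6.88 in tumors 6 to 8, against 7.82 to 8.91 in glands. Tumors 5, 6 and 7 came from 1 mouse. With only the 4 tumors whose log2 ratio of 3 prime to 5 prime Gapdh control probe sets lay below -0.1, tumors 1 to 4, 14 macrophage genes rose, and with only tumors 5 to 8 there was 1. The spike-in control signal was also higher in tumors 1 to 4 (9.09 to 10.19) than in tumors 5 to 8 (8.25 to 8.56), and the part of either measure in the macrophage values was not tested. Csf1r, the macrophage growth factor receptor, was 8.20 to 12.75 (median 11.38) in tumors and 10.16 to 11.24 in glands (difference 0.62, interval -0.71 to 1.96). C1qa, a complement subunit of macrophages, spanned 7.81 to 12.08 in tumors (difference 1.35, adjusted p = 0.133). So defining macrophage transcripts were well above the floor in cells sorted for lacZ, and their part in the other results was not tested. Fcgr1, a high-affinity Fc receptor, rose by 1.06 (adjusted p = 3.73e-04). Of 7 tested genes of alternatively activated macrophages 1 rose, Arg1, arginase 1, 1 fell, Retnla, and 5 did not pass (median -0.232). Arg1 was 8.0 to 11.71 in tumors and 7.55, 7.33, 6.93, 5.00 and 5.00 in glands, with no overlap (3.54 ± 0.62, adjusted p = 4.10e-05). It was highest in tumors 6 to 8 (11.71, 10.93 and 10.93), which were lowest for the macrophage list, and the cells that made it were not tested. Retnla was 10.75 to 12.87 in glands and 5.00 to 11.95 in tumors, highest in tumors 2 and 4 (-3.57 ± 1.10, adjusted p = 0.0153; adjusted p = 0.123 with only the 13 arrays).

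The neutrophil granule and alarmin list rose for 6 of 12 genes, with none lower and a median of 0.933. The count was 4 without gland 1 or gland 4 and 3 with only the 13 arrays, the Actb covariate or only tumors 1 to 4. The calls lost in these last settings were those of Ltf, also in the milk protein list, Lcn2 and Pglyrp1. S100a8, a calprotectin subunit, was 6.42 to 12.26 (median 9.92) in tumors and 5.00 to 5.62 in glands (4.47 ± 0.81, adjusted p = 7.69e-05), and its partner S100a9 rose by 3.91 (adjusted p = 6.40e-04). For both the groups did not overlap. Prtn3, the serine protease proteinase 3, was at the floor in all 5 glands and 7.37 to 10.82 in tumors, at least 19.7-fold higher. Elane (0.39, adjusted p = 0.0944) and Mpo (0.59, adjusted p = 0.24), granule genes known to be made together with Prtn3 in neutrophil precursors, did not pass. Prtn3 was also 3.18 higher in sorted tumor than in sorted hyperplasia (adjusted p = 9.43e-05), where it was 5.00 to 7.35. Sorted minus unsorted tumor was -0.40 (adjusted p = 0.462), which did not pass. Of 11 T and NK cell genes none passed in the limma fit (1 higher and 2 lower at an unadjusted p under 0.05; 1 was lower without tumor 3, tumor 6 or gland 2), and Cd3d, a T cell receptor subunit, was 5.00 to 5.99 in tumors and 5.09 to 6.42 in glands. Of 11 B and plasma cell genes 4 fell (2 without tumor 8 or gland 4), led by Jchain, the joining chain of secreted IgA and IgM (-3.20 ± 0.75, adjusted p = 0.00173). Of 5 mast cell genes 3 fell, the proteases Cma1 (-1.76), Cpa3 (-1.63) and Mcpt4. Mcpt4 was at the floor in every tumor and 5.26 to 7.27 in glands.

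**Figure D3:**
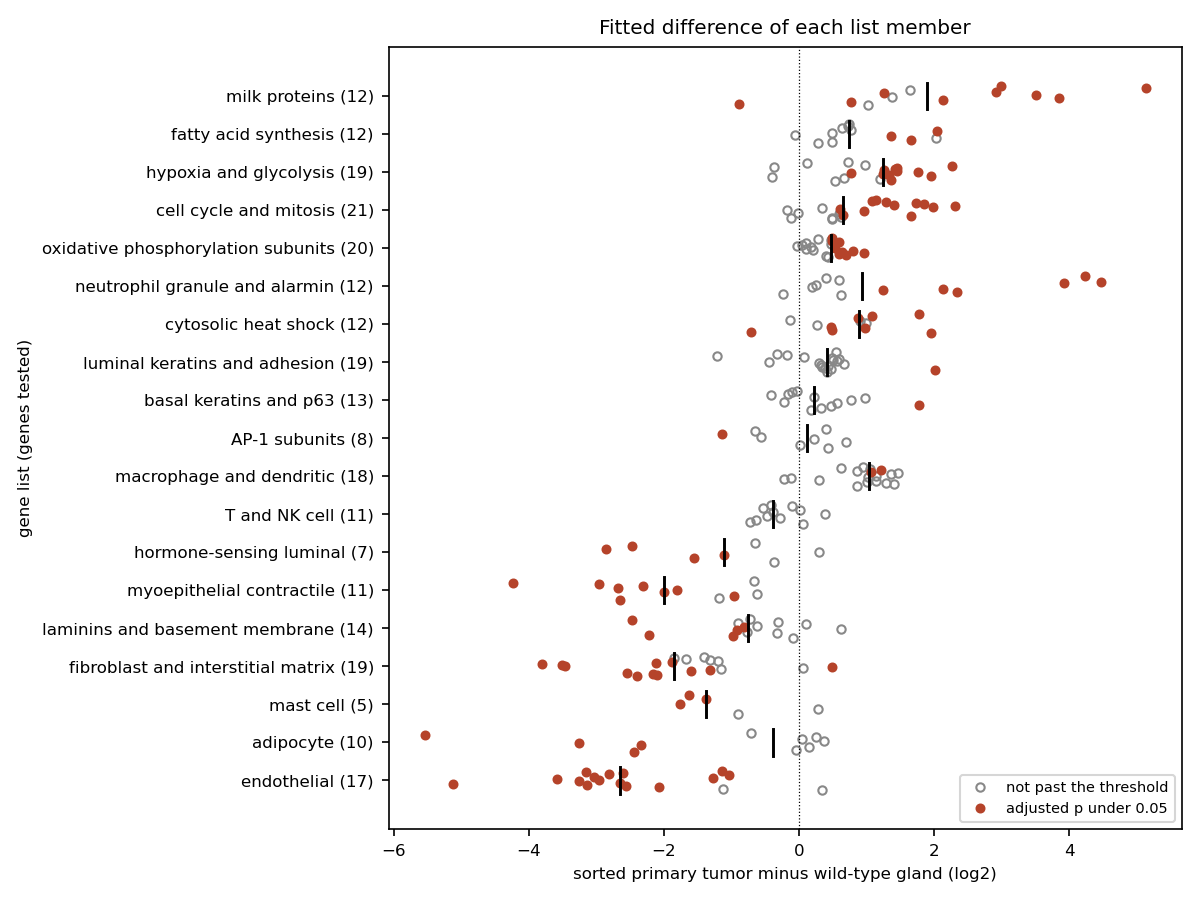
Fitted difference, sorted tumor minus gland in log2, of each tested member of 19 gene lists (points; filled where the adjusted p is under 0.05) with the list median (bar); numbers in brackets are genes tested. Medians run from -2.65 for endothelial genes to 1.89 for milk proteins, and the luminal and basal keratin lists have medians of 0.419 and 0.226.

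Glycolysis and hypoxia genes rose for 11 of 19 tested, with none lower and a median of 1.24. For 7 of the 19 the arrays did not overlap. The count was 8 with only the 13 arrays, 7 with the Actb covariate and 7 relative to epithelial genes. Pkm, pyruvate kinase, was 11.13 to 12.12 in tumors and 10.24, 10.09, 9.76, 9.32 and 9.22 in glands (1.76 ± 0.24, adjusted p = 2.32e-07). Aldoa, aldolase, rose by 1.44, Pgam1, phosphoglycerate mutase, by 1.44 and Tpi1, triose phosphate isomerase, by 1.42. Pgk1, phosphoglycerate kinase, rose by 1.25 (adjusted p = 3.00e-04) and Pfkl, the liver-type phosphofructokinase, by 2.27 (adjusted p = 1.91e-04). Among oxygen-regulated genes Pdk1, which restrains pyruvate entry into mitochondria, rose by 1.32 (adjusted p = 0.00306), and Car9, a carbonic anhydrase, by 1.37 (adjusted p = 0.0186). The call of Car9 was lost in 5 settings, with only the 13 arrays (adjusted p = 0.0681), with only tumors 1 to 4, with a floor of 100, with the Actb covariate and relative to epithelial genes. Egln3, a prolyl hydroxylase, rose by 1.96 (adjusted p = 0.0147), but not without gland 5 (1.70, adjusted p = 0.0615). Slc2a1, a glucose transporter (0.72), Hk2, hexokinase 2 (0.98), and Bnip3, a mitophagy receptor (-0.40), did not pass. Against sorted hyperplasia, which was also sorted for lacZ, Pkm (1.08, adjusted p = 0.00742), Tpi1 (1.13, adjusted p = 0.00152), Pgam1 (0.92, adjusted p = 0.00877) and Pdk1 (1.29, adjusted p = 0.0254) were also higher in tumor. With only those 12 arrays in the fit none of the 4 passed (adjusted p = 0.145 to 0.386). Car12, another carbonic anhydrase, rose among the 12 largest changes, from 5.00 to 5.20 in glands to 6.89 to 10.26 in tumors (3.13 ± 0.57, adjusted p = 7.48e-05). Of 9 carbonic anhydrases 2 rose, Car9 and Car12, and 3 fell, Car3 (-3.26), Car4 (-1.13) and Car8 (-1.50).

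Hypoxia-inducible factors bind a core of ACGTG or GCGTG. Of 21 promoter windows of the list's 22 genes, 14 held ACGTG on either strand, against 19.6% of all windows, and 13 held GCGTG, against 32.4%. These motifs differ in their first base and share the rest. Windows of 3 genes that rose, a glycolytic enzyme gene and a pair of oxygen-regulated enzyme genes, follow as examples, with matches on either strand in capitals: Pgk1 (chrX:106186930-106187009, + strand), Pdk1 (chr2:71873126-71873205, + strand) and Egln3 (chr12:54204044-54204123, - strand).
Pgk1: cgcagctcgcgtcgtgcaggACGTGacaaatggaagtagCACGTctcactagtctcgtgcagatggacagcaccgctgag
Pdk1: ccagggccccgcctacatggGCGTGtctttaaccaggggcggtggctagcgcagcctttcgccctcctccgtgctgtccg
Egln3: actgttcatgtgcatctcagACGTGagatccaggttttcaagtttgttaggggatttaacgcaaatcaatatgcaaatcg
Pgk1 holds ACGTG once on each strand within this window, and Pdk1 holds the GCGTG form. A match is a description of the letters, not of binding.

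Of 13 IGF system genes 2 rose and 2 fell, shares near those of all genes (1 fell without tumor 3 or 8 or without gland 1, 2 or 5). Igf2, insulin-like growth factor 2, an imprinted fetal growth factor, was 10.08 to 13.39 (median 11.29) in tumors and 7.74, 8.21, 8.05, 8.24 and 8.36 in glands, with no overlap (3.16 ± 0.64, adjusted p = 3.57e-04). It was 8.19 to 9.17 in the 4 hyperplasia arrays, 2.44 below the tumors (adjusted p = 0.0311). Igfbp2, an IGF-binding protein, rose by 3.20 (adjusted p = 0.00162), from 5.56 to 6.46 in glands to 8.05 to 11.18 in tumors. Igfbp6, the binding protein that prefers IGF2, fell by 2.73 (adjusted p = 2.96e-07). Grb10 and Ndn, other imprinted genes, fell by 1.71 and 1.25 (adjusted p = 0.00254 and 4.66e-06). Col9a1, a chain of the cartilage collagen type IX, rose by 3.79 ± 0.60 (adjusted p = 6.95e-06), with 7.87 to 12.56 in tumors and 6.38 to 7.58 in glands. Its partner chain Col9a3 rose by 1.92 (adjusted p = 0.00759; 0.108 with only the 13 arrays). Of 11 cartilage collagen and matrix genes 2 rose and 2 fell, the latter being Matn1 (-0.38) and Matn3 (-0.39), matrilins of cartilage matrix. The count that fell was 0 without gland 4 or gland 5, with only the 13 arrays and with the Actb covariate. Col2a1, the main cartilage collagen, and Col9a2 did not pass (adjusted p = 0.956 and 0.992). Lbp, the lipopolysaccharide-binding protein, rose by 3.03 (adjusted p = 2.60e-06). The Etv6 probe set, for the gene that gives the fusion its first part, was 7.33 to 9.28 in tumors and 8.44 to 9.36 in glands (-0.30, interval -0.87 to 0.28). The mouse Ntrk3 probe set was at or within 0.003 of the floor in glands and 5.00 to 6.90 in tumors (0.87, adjusted p = 0.0164), and its call was lost in 7 of 28 settings, among them without tumor 8 (0.70, adjusted p = 0.053). The labels do not say if either probe set reads the fusion transcript. Of 12 RAS-MAPK feedback genes Etv4 (0.64) and Etv5 (1.16), ETS factors downstream of this pathway, rose, and Dusp6, a phosphatase of ERK, differed by -0.02 (interval -0.64 to 0.61). The call of Etv5 was lost in 11 settings, among them without tumor 1 or 8 and gland 4 or 5, where its difference was 0.90 to 1.06. That of Etv4 was lost in 8, among them without tumor 2 or 3 and gland 5 (0.53 to 0.59).

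Cell-cycle genes rose for 12 of 21 tested, with none lower and a median of 0.645. The count was 6 relative to epithelial genes and 7 with a floor of 100. The glands were uneven. Mki67, a proliferation marker, was 8.69, 5.50, 7.99, 7.55 and 5.86 in glands 1 to 5 and 7.30 to 8.89 (median 8.50) in tumors. Glands 1, 3 and 4 lay inside the tumor range, and glands 2 and 5 lay below it. The difference was 1.13 ± 0.35 (adjusted p = 0.0152), and it did not pass without gland 2 (0.73, adjusted p = 0.12) or gland 5 (0.82, adjusted p = 0.109). Birc5, survivin, showed the same order of glands, at 8.0, 5.00, 7.37, 5.94 and 5.00 against 7.86 to 9.02 in tumors (2.31 ± 0.33, adjusted p = 1.09e-06). Ube2c, a ubiquitin-conjugating enzyme of mitotic exit (1.97), Cdk1 (1.85) and Ccnb2, a mitotic cyclin (1.72), rose with adjusted p between 1.28e-04 and 0.00113. The mean level of the list was 7.40, 5.71, 6.86, 6.46 and 5.64 in glands 1 to 5 and 7.03 to 7.68 in tumors. In unsorted tumors minus gland the median of the list was 1.87. Directly compared, 18 of the 21 genes were lower in sorted than in unsorted tumor and none was higher, where 15.7% of all genes were lower and 9.67% higher. Relative to epithelial genes the split of this comparison over all genes was 5241 higher and 136 lower. Myc fell by 1.15 ± 0.27 (adjusted p = 0.00151), with 7.94 to 8.75 in tumors and 9.70, 10.23, 9.58, 8.76 and 9.61 in glands, and no overlap.

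**Figure D4:**
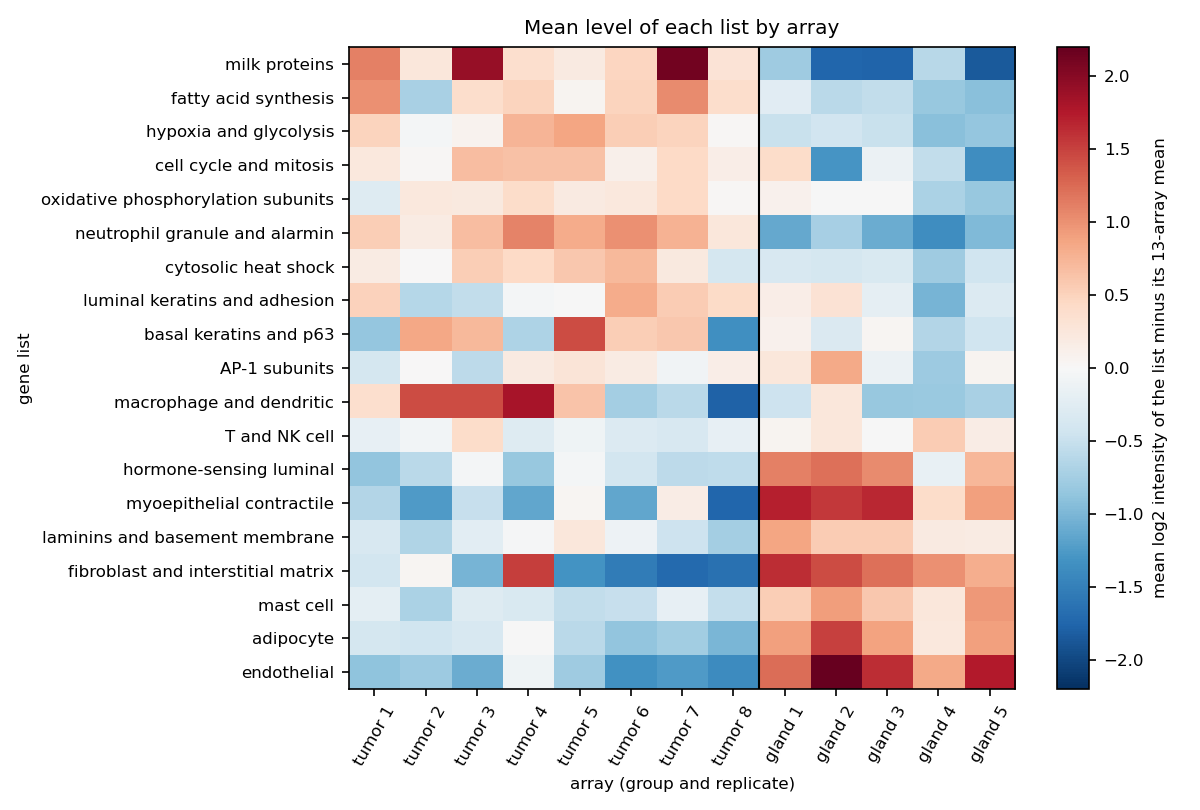
Mean log2 intensity of each gene list on each of the 8 tumor and 5 gland arrays, minus the list's mean over the 13 arrays (red above, blue below). Endothelial genes are low in all tumors, macrophage genes are higher in tumors 1 to 5 than in any gland, and cell-cycle genes are low in glands 2 and 5.

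Early-response genes were high in both groups. Of 8 AP-1 subunits none rose and 1 fell in the limma fit (1 and 2 at an unadjusted p under 0.05; 3 fell after quantile normalization), with a median of 0.113 that turned to -0.18 after quantile normalization and to -0.0882 relative to epithelial genes. Fos was 12.44 to 12.98 (median 12.61) in sorted tumors and 12.63, 13.17, 12.09, 10.75 and 12.32 in glands, with a difference of 0.39 (interval -0.54 to 1.32, adjusted p = 0.584). Unsorted tumors gave 7.03 to 10.60 (median 8.86), all below every gland and every sorted tumor. The hyperplasia arrays, which were sorted, gave 12.37 to 13.03. Fosb repeated this order. It was 9.39 to 11.48 in sorted tumors, 9.62 to 12.28 in glands and 5.10 to 6.83 in unsorted tumors (sorted minus gland -0.65, interval -1.29 to -0.01, adjusted p = 0.133; sorted minus unsorted 4.29, adjusted p = 1.35e-18). Jun (0.22), Junb (0.69), Atf3 (0.43) and Dusp1, an immediate-early phosphatase (0.60), also did not pass against gland. Of 23 immediate-early genes 1 rose and 3 fell against gland (median -0.193), beside 11.9% and 11.4% of all genes. None rose without tumor 4, 5 or 8 or gland 3, 4 or 5, and 1 fell without tumor 1 or 3 or gland 2 or 5. All 8 AP-1 subunits and 19 of 23 immediate-early genes were higher in sorted than in unsorted tumor, and none was lower. This comparison shares the sorted tumors with the one above. Relative to epithelial genes its split over all genes moved from 1462 higher and 2373 lower to 5241 and 136. Unsorted tumor minus gland had a list median of -2.55 for AP-1 subunits and hyperplasia minus gland 0.277, both with the same glands. Fosl1, an AP-1 subunit, fell by 1.15 (adjusted p = 0.0313), but its call was lost in 9 of 28 settings, among them without tumor 1, 3 or 8 and without gland 2, 3 or 5, where its difference was -1.14 to -0.87.

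Of 12 cytosolic heat-shock genes 7 rose and 1 fell (median 0.885), the latter not without gland 2. Hspa1a, an inducible HSP70, was tightly grouped at 9.62 to 9.90 in glands, 10.09 to 12.40 (median 11.46) in sorted tumors and 6.31 to 7.84 in unsorted tumors, with no overlap between any pair of these groups. Sorted tumor exceeded gland by 1.77 ± 0.33 (adjusted p = 1.00e-04) and unsorted tumor by 4.37 (adjusted p = 1.47e-18). Hspa1b, its near-identical copy, whose signal may be shared, rose by 1.07 (adjusted p = 0.00111). The list count fell to 2 with only the 13 arrays, with the Actb covariate and relative to epithelial genes. Of 19 inflammatory cytokine and NF-kB feedback genes 4 fell (2 without tumor 1 or tumor 3) and none rose in the limma fit (2 at an unadjusted p under 0.05; 1 without tumor 8). Il6, interleukin 6, was 10.30, 11.78, 11.15, 10.56 and 11.40 in glands and 5.42 to 10.88 (median 7.21) in sorted tumors, where only tumor 4 reached the gland range and tumor 2 followed at 9.36 (-3.36 ± 0.53, adjusted p = 7.89e-06). It was at or near the floor in all unsorted tumors, at most 5.08. Tnfaip6, a hyaluronan-binding protein of activated fibroblasts and other cells, fell by 2.91 (adjusted p = 4.86e-04). The chemokine genes Cxcl1 (0.05) and Cxcl2 (0.98), the neutrophil attractants, did not pass. Tumors 2 and 4, highest for Il6, were also highest for the fibroblast list and for the alternatively activated macrophage list (8.71 and 9.39 against 6.26 to 7.30 in the other tumors). Sorting for lacZ was meant to keep recombined epithelial cells, and the part of other cell types in the Il6 values was not tested.

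**Figure D5:**
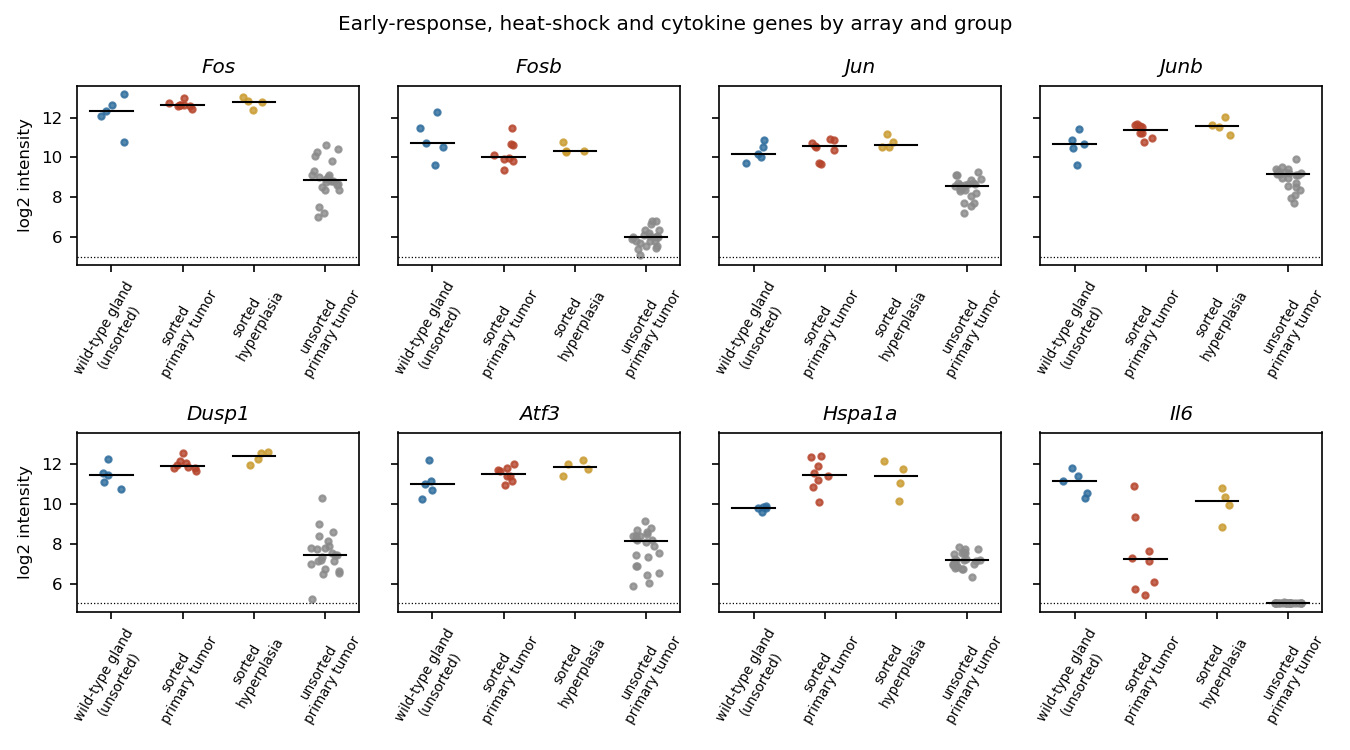
Log2 intensity by array of 6 early-response genes, Hspa1a and Il6 in glands (5), sorted tumors (8), sorted hyperplasia (4) and unsorted tumors (23); bars are medians and the dotted line is the floor. For Fos and Fosb the unsorted tumors lie below every array of the other groups, and Il6 is at or near the floor in all unsorted tumors.

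Sorted hyperplasia offered a comparison in which both sides were sorted for the same reporter. There 197 genes (1.3%) were higher and 379 (2.51%) lower in tumor. Of these, 79 were also among the genes higher and 152 among those lower than in gland, comparisons that share the tumor arrays. The counts were 1 and 12 with only these 12 arrays in the fit, and ranged from 28 to 359 and from 130 to 592 as each hyperplasia array was left out, lowest without replicate 1. None of the 8 AP-1 subunits passed in the limma fit (0 at an unadjusted p under 0.05), nor did any of the 21 cell-cycle genes (2 were lower at an unadjusted p under 0.05). Of the 17 endothelial genes 7 were lower in tumor, and of the 19 fibroblast genes 5. Some immune lists were also lower in tumor than in hyperplasia, with 7 of 11 B and plasma cell genes, 4 of 11 T and NK cell genes and 4 of 7 genes of alternatively activated macrophages. Of 18 macrophage and dendritic genes 1 was lower (9 at an unadjusted p under 0.05), and of 7 MHC class II genes 1 (3 unadjusted). Of 12 neutrophil granule and alarmin genes 1 was higher and none lower. None of 5 mast cell genes passed in the limma fit (2 were lower at an unadjusted p under 0.05). Phlda3, a p53 target that restrains AKT, was higher in tumor than in hyperplasia (2.34, adjusted p = 1.17e-04) and than in gland (1.69, adjusted p = 8.36e-04). Gpx2, an epithelial glutathione peroxidase, was 2.47 higher than in hyperplasia (adjusted p = 0.0311) and 2.76 higher than in gland (adjusted p = 0.00179), where it was 5.00 to 5.68. Against hyperplasia with only the 12 arrays, neither these genes nor Prtn3, Igf2 or Wap passed (adjusted p = 0.157 for Phlda3, 0.46 for Gpx2, 0.185 for Prtn3, 0.382 for Igf2 and 0.575 for Wap).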

How the data were processed

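Per the labels, total RNA was isolated with Trizol, cleaned on columns, biotinylated and read on Affymetrix mouse arrays. The deposited values are probe set intensity on a linear scale, as the authors left them; summarization and scaling are not given in the sources used here. One probe set with extreme values was left out. Intensities under 32 were set to 32 (36.6% of values on these 13 arrays) before log2. Of 45101 probe sets (64 of them controls), 34944 had 1 gene symbol in the platform annotation, 932 several and 9160 none; 34740 symbols matched RefSeq (GRCm38.p6). Each gene took its brightest probe set and 15123 of 18192 genes were tested, those above the 40th percentile of the array on 4 arrays or more. All 6 groups (50 replicates; 2 arrays of 1 unsorted tumor, r = 0.99 across genes, were averaged) were fitted with limma 3.58.1 in R 4.3.3, with mouse as random block (correlation 0.358) and Benjamini-Hochberg adjustment. The fitted difference weights mice, so it can depart from the difference of means. Replicates were separate tumors or mice. A group wholly at the floor gives a fold bound, the other group's mean over the floor. The fit was first tested on simulated data with known changes.

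The gene lists, members and alternatives were chosen with earlier results of these data known. Lists were described by counts and medians. Genes were named by rule: the 12 largest rises and falls among called genes whose higher group's mean exceeded the median of all probe sets (unnamed transcripts skipped), a fixed set of 21, and up to 6 called members of each list and direction, with uncalled members by value. Some list members had no probe set of their own or fell under the filter. Plots and permutation tests used Python 3.11.15, scipy 1.17.1 and matplotlib 3.10.9.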

Additional observations from a re-analysis of the deposited data

Results flagged for a closer look

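Among 45 genes, those of the largest changes and the fixed set, 11 values stood apart from the rest of their group by Dixon's ratio. Chance alone gives this in about 1 in 20 groups of normally distributed values. That rate does not hold for groups with values at the floor, as for Agtr1a, Fgg and Ntrk3. In gland 4 Glycam1 was 10.26 against 5.37 to 5.98 in the other glands, and Car12 was 5.20 against 5.00. Gland 1 had Etv6 at 9.36 (others 8.44 to 8.67). Gland 5 had S100a8 at 5.62 (others 5.00 to 5.11), and gland 2 had Ntrk3 at 5.003, a step above a floor at which all others lay. In tumor 8 Csn1s2a was 10.47 (others 12.16 to 13.49) and Tlcd4 was 5.47 (others up to 5.13). Tumor 4 gave the one value above the floor for Agtr1a (6.47) and for Fgg (5.29). Tumor 7 had Myh11 at 8.06 (others up to 6.15), and tumor 5 had Mme at 6.37 (others up to 5.10).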

How the results depend on the processing

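No paired analysis was possible because the labels give the groups compared no shared replicate numbers. Genes higher in sorted tumor than in gland numbered 1797 and came to 1147 with a floor of 100, 290 relative to epithelial genes, 739 with only the 13 arrays, 689 with the Actb ratio as covariate (added after seeing the data), and 1018 to 1884 as each gland or tumor array was left out. Genes lower numbered 1726 and came to 717, 668 and 1016 under the second to the fourth of these settings, to 1070 with only the 4 tumor arrays whose Gapdh ratio was below -0.1, and to 1335 to 1762 as each array was left out. Sorted minus unsorted tumor moved to 5241 higher and 136 lower relative to epithelial genes, and ranged over 1140 to 1662 and 1742 to 2412 without each tumor array. Sorted tumor minus hyperplasia, 197 higher and 379 lower, came to 16 and 236 relative to epithelial genes, 1 and 12 with only its arrays, 320 and 569 with no mouse block, 37 and 122 with the spike-in signal as covariate and, for genes higher, 95 with a floor of 100; it ranged over 28 to 359 and 130 to 592 as each array was left out. The cause of these moves was not tested. The remaining settings kept these counts within 1.5 times. Of 3523 genes called in sorted tumor minus gland, 1363 kept call and direction with only the 13 arrays, 1612 with the Actb covariate and 991 relative to epithelial genes. Of the named genes, 2 turned sign when probe sets were averaged, Mvd (0.26) and Ccne1 (0.25), and both were then uncalled. With only the 13 arrays 50 named genes lost their call, with the Actb covariate 40 and relative to epithelial genes 42. A gene uncalled under both settings was counted as unchanged. Signal near the floor limits dim genes such as Pecam1, Ntrk3 and Car12, whose calls were lost with a floor of 100.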

Other observations

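Further lists gave smaller or mixed counts. Of 20 oxidative phosphorylation subunits 9 rose and none fell (median 0.471), for example Cox5a (0.96, adjusted p = 6.06e-05), but 1 was called with the Actb covariate, 2 without gland 4 and 4 without gland 5. Of 22 proteasome subunits 7 rose, among them Psma7 (0.93, adjusted p = 5.94e-04), and the count was 15 without tumor 1, 4 without tumor 4, 2 without gland 4 and 1 without gland 5. With only the 13 arrays or the Actb covariate the count in limma was 0. In the fit as reported 13 passed an unadjusted p under 0.05. Of 15 endoplasmic reticulum chaperone genes 5 rose and 1 fell, with 9 rising without tumor 2 and 3 without tumor 4, 5, 6 or 8 or gland 4 or 5. Sdf2l1 (1.13, adjusted p = 3.68e-04) and Creld2 (0.91, adjusted p = 4.63e-04) rose, while Hspa5, the main chaperone BiP, did not pass (0.43, adjusted p = 0.199).

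Of 14 glutathione and NRF2 target genes 2 rose and 4 fell. Gclc, the catalytic subunit of glutathione synthesis, fell by 1.69 (adjusted p = 1.31e-04) and Gstm1, a glutathione transferase, by 1.35 (adjusted p = 0.00533). Of 8 genes of mesenchymal transition none rose and 3 fell, Zeb1, a repressor of E-cadherin, by 1.41 (adjusted p = 0.00266), and Vim, vimentin, did not pass (-0.41, interval -1.13 to 0.32). Oas1a, which senses double-stranded RNA, was the only one of 16 interferon response genes to rise (1.97, adjusted p = 0.00552), and its call was lost with the Actb covariate.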
